A study of Homo sapiens with 4 samples.

Results

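The circRNAs of 5 host genes, RELL1, CDYL, ASXL1, BANP and DYNC1H1, were examined in AGS, an established human gastric adenocarcinoma cell line. The genes were chosen by the mean RPM of their circRNAs, which were among the most abundant in these libraries, and all circRNAs assigned to them were taken. They held 27 of the 11760 listed circRNAs and 5 of the 4410 listed host genes. Of the 27, 4 came from RELL1, 1 from CDYL, 1 from ASXL1, 12 from BANP and 9 from DYNC1H1. For each host the circle with most reads over all libraries is called the main circle and the others minor circles. The compared cells were AGS transfected with FLAG-DDX5 (DDX5, 2 libraries) and AGS that received the empty vector with the FLAG tag alone (NC, 2 libraries). DDX5 is an RNA helicase of the DEAD-box family that takes part in splicing, and the study asked whether its overexpression alters circRNAs. The construct was a plasmid, delivered by lipid transfection, whose vector is named for the CMV promoter. Its level per cell was not measured here. The libraries of a group are described as biological replicates, with no word on separate cultures, so that p-values refer to the spread between these libraries only.

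A circRNA forms when the donor site at the end of a downstream exon is joined to the acceptor site at the start of an upstream exon, a step called back-splicing. The product has no free ends, and it resists RNase R, the exonuclease used here to remove linear RNA after rRNA depletion. The reads that cross this junction were the measurement, given as counts and as RPM, reads per 1000000 back-splice reads of the library. A junction read shows the exon edges that were joined and not the exons between them, and fewer circles per cell cannot be told apart from fewer cells that hold them.

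The depth was 78377 and 60178 reads for the DDX5 libraries, against 73173 and 97961 reads for the NC libraries, which made a read worth 10.2 to 16.6 RPM. Where a circle had 0 reads, counting error alone left room for 3 reads, or 30.6 to 49.9 RPM. Such zeros were common in the whole table, since for 3028 of 8497 values of at least 10 reads (35.6%) the replicate library had 0 reads. The DDX5 gene itself was host to 0 listed circRNAs, so the overexpression could not be checked in these data. Of the gastric and epithelial markers, 4 of 18 were listed as hosts and 2 had reads. EPCAM, an adhesion protein of epithelial cells, had 49 and 66 reads in DDX5 libraries and 72 and 88 in NC libraries, while CDH1 had 21 reads in DDX5 replicate 1 and 0 in the other libraries. Of 14 stromal and immune markers, 0 were listed as hosts. The summed reads of the epithelial list, not scaled for depth, ranged from 66 to 70 in DDX5 and from 72 to 88 in NC libraries. In RPM, EPCAM had 625 and 1097 in DDX5 libraries and 984 and 898 in NC libraries, so the groups overlapped. Many genes of these lists, such as CLDN18, MUC5AC and TFF1, were not listed as hosts, which says nothing of their linear RNA.

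The junctions of the 5 main circles are shown first because the junction is the sequence by which a circle is recognised. Each line holds the last 20 bases of the donor exon in lower case, followed by the first 20 bases of the acceptor exon in capitals, taken from GENCODE 29 transcripts on GRCh38.
RELL1 exons 4 to 6: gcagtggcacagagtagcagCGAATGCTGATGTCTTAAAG
CDYL exon 2: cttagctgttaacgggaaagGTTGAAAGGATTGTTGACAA
ASXL1 exons 2 to 4: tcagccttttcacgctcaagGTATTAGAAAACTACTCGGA
BANP exons 8 to 11: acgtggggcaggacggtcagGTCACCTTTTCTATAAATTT
DYNC1H1 exons 63 to 64: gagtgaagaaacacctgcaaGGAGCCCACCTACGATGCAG

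The main circles took most of the reads of these hosts. The 27 circles had 14969 of the 309689 back-splice reads (4.83%), and the 5 main circles alone had 13769 (4.45%). The share of the 27 circles was 4.57% and 5.35% in DDX5 libraries and 4.75% and 4.79% in NC libraries. By mean RPM over the 4 libraries, the values used to choose the hosts, the main circles of RELL1, CDYL and ASXL1 had ranks 1, 2 and 3, that of BANP rank 6 and that of DYNC1H1 rank 9. The name "most abundant" therefore held in part, since circles of other hosts lay between them. Among them, CAMSAP1 (rank 4, 8645 RPM), GCN1 (rank 5, 7008 RPM) and PVT1 (rank 8, 5194 RPM) were above the DYNC1H1 circle at 4860 RPM, and RHOBTB3 (rank 10, 4618 RPM) was just below it.

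**Figure D1:**
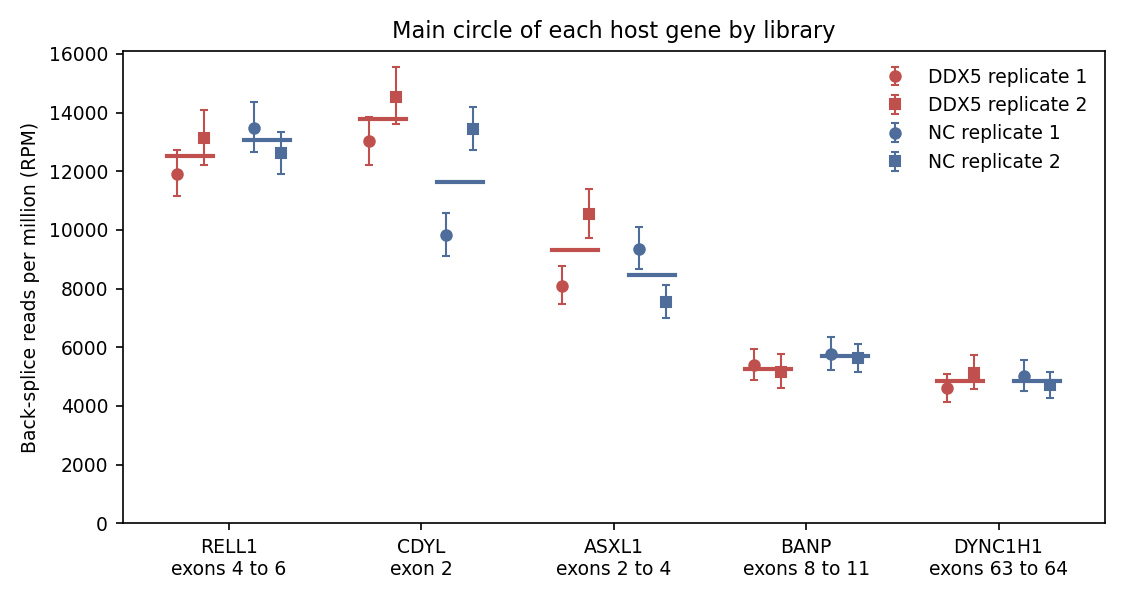
RPM (vertical axis, from 0) of the main circle of each host in DDX5 replicates 1 and 2 (red) and NC replicates 1 and 2 (blue). Vertical bars are exact Poisson 95% intervals, which cover counting error only, and horizontal lines are group means. RELL1 and CDYL were at 9826 RPM or above in every library, and BANP and DYNC1H1 lay between 4593 and 5753 RPM.

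RELL1 encodes a membrane protein related to RELT of the tumor necrosis factor receptor family. Its main circle joined exons 4 to 6 (chr4:37633007-37640126, minus strand, in the coordinates of the files). It had 11917 and 13128 RPM in DDX5 libraries, against 13489 and 12607 RPM in NC libraries. The groups overlapped, and the circle was rank 1 or 2 in every library.

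CDYL encodes a chromodomain protein that binds methylated histones and represses transcription. Its circle was a single exon, exon 2 (chr6:4891947-4892613, plus strand), and was the only circRNA listed for the gene. It had 13014 and 14540 RPM in DDX5 libraries, against 9826 and 13444 RPM in NC libraries. NC replicate 1 was the low one, with a Poisson interval of 9121 to 10571 RPM that did not reach the interval of NC replicate 2 (12728 to 14190 RPM). The coefficient of variation was 7.83% in DDX5 and 22.0% in NC libraries, against medians of 11.5% and 13.9% over 56 circRNAs of other hosts with at least 500 reads.

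ASXL1 encodes a Polycomb-group protein that activates the histone deubiquitinase BAP1. Its circle joined exons 2 to 4 (chr20:30954187-30956926, plus strand) and was also the only one listed for its host. It had 8102 and 10535 RPM in DDX5 libraries, against 9361 and 7544 RPM in NC libraries. The highest and second lowest values belonged to DDX5 libraries, so the groups overlapped, and the intervals of the DDX5 pair (7484 to 8757 and 9731 to 11388 RPM) did not meet. If spliced as in the annotated transcript, this circle has 195 nt from exons of 83, 3 and 109 nt, and it is printed whole since its middle exon, in capitals, is only 3 bases long.
ASXL1 circle, exons 2 to 4: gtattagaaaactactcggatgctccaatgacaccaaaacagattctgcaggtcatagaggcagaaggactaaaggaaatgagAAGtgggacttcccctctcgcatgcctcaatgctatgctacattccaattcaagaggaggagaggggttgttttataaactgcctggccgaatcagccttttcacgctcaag

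BANP encodes a nuclear protein that binds matrix attachment regions and promoter DNA. Its main circle joined exons 8 to 11 (chr16:88061089-88071617, plus strand). It had 5384 and 5151 RPM in DDX5 libraries, against 5753 and 5614 RPM in NC libraries. Both DDX5 values lay below both NC values, while the Poisson intervals of all 4 libraries overlapped.

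DYNC1H1 encodes the heavy chain of cytoplasmic dynein, the motor that carries cargo along microtubules. Its main circle joined exons 63 to 64 of the 78 exons of the gene (chr14:102506573-102507010, plus strand). It had 4593 and 5135 RPM in DDX5 libraries, against 5016 and 4696 RPM in NC libraries. The NC values lay between the DDX5 values, and the group means, 4864 ± 383 and 4856 ± 226 RPM (SD, n = 2 each), differed by less than either SD.

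In order of mean level, RELL1 (12785 RPM) and CDYL (12706 RPM) were not separated, since CDYL was above RELL1 in 3 libraries and below it in NC replicate 1. ASXL1 (8886 RPM) was below both in every library, although CDYL and ASXL1 came close in NC replicate 1. BANP (5476 RPM) and DYNC1H1 (4860 RPM) were lower again, and BANP was above DYNC1H1 in each library, with Poisson intervals that overlapped in 3 libraries and were apart in NC replicate 2. Likeness to circles outside the hosts described was measured by the root mean square difference of log2(RPM + 1) over the 4 libraries. RELL1 and CDYL were thus not candidates for each other. Among these outside circles, that of PVT1 was the nearest to BANP (0.097) and to DYNC1H1 (0.12). GCN1 was the nearest to ASXL1 (0.39), and CAMSAP1 was the nearest to CDYL (0.70) and to RELL1 (0.72).

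The minor circles were then compared with the main circle of each host. Of the 22 minor circles, 16 had reads, 11 had at least 10 reads over the 4 libraries and 6 were listed with 0 reads in each. Only 3 of them, RELL1 exons 5 to 6, BANP exons 2 to 4 and DYNC1H1 exons 63 to 69, had reads in all 4 libraries. Another 8 were seen in 1 library only, with 3 to 14 reads, and 5 of these were of BANP and 3 of DYNC1H1. The junctions of the minor circles with at least 10 reads that share a splice site with a main circle are given in the same form, to be read against the lines above.
RELL1 exons 5 to 6: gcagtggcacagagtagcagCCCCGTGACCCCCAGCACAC
BANP exons 7 to 11: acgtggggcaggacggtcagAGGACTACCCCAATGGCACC
BANP exons 9 to 11: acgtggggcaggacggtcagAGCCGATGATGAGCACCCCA
DYNC1H1 exons 63 to 69: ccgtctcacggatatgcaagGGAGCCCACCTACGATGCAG

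The 2 RELL1 circles with reads used the same donor, at the end of exon 6, and differed in the acceptor. The minor circle of exons 5 to 6 (chr4:37633007-37636745) had 73 and 66 reads in DDX5 libraries and 92 and 100 in NC libraries. Per 100 reads of the main circle this was 7.82 and 8.35 in DDX5 libraries and 9.32 and 8.10 in NC libraries, so the minor circle followed the main one closely. The main circle took 92.8% and 92.3% of RELL1 reads in DDX5 libraries and 91.5% and 92.5% in NC libraries. The other listed RELL1 circles, exons 2 to 6 and exons 2 to 3, had 0 reads.

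BANP had the most circles and the lowest main share of the 5 hosts. Reads were found on 10 of its 12 circles, and the main circle took 82.1% and 61.3% of them in DDX5 libraries and 70.6% and 71.6% in NC libraries. The exact Clopper-Pearson 95% intervals of the DDX5 pair, 78.5 to 85.3% and 56.9 to 65.5%, did not meet, and both NC shares lay between them. DDX5 replicate 2, the library with fewest reads, showed 8 BANP circles, against 3 in DDX5 replicate 1 and 5 and 4 in the NC libraries.

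The donor of BANP exon 11 was shared by 4 circles and carried 82.1% and 74.1% of BANP reads in DDX5 libraries and 85.1% and 82.0% in NC libraries. The acceptors joined to it varied between libraries. The circle of exons 7 to 11 had 0 and 42 reads in DDX5 libraries and 29 and 80 in NC libraries, and that of exons 9 to 11 had 0 and 23 reads in DDX5 libraries and 49 and 0 in NC libraries. DDX5 replicate 1 held neither, although it had 422 reads of the main circle with the same donor. The circle of exons 2 to 4 lies upstream of the main circle and shares no site with it. It had 81 and 81 reads in DDX5 libraries and 89 and 134 in NC libraries and was the steadiest BANP minor circle. The acceptor of exon 2, used by this and 2 other circles, took 17.9% and 18.8% of BANP reads in DDX5 libraries and 14.9% and 17.4% in NC libraries. Circles of exons 2 to 7 and exons 5 to 6 had 14 and 13 reads, all in DDX5 replicate 2, and exons 2 to 3 had 11 reads, all in DDX5 replicate 1. Exons 3 to 4 had 16 reads in DDX5 replicate 2 and 4 in NC replicate 2. Exons 5 to 11 and 7 to 8 had 8 and 7 reads in 1 library each, and exons 5 to 7 and 6 to 11 had 0 reads.

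DYNC1H1 had reads on 7 of 9 circles, spread over the gene at exons 6 to 69, but 93.2% of its reads used the acceptor of exon 63. The main circle took 89.1% and 89.3% of reads in DDX5 libraries and 92.4% and 85.7% in NC libraries. A second circle from the same acceptor, exons 63 to 69, had 10 and 5 reads in DDX5 libraries and 19 and 39 in NC libraries. Per 100 reads of the main circle these were 2.78 and 1.62 in DDX5 libraries and 5.18 and 8.48 in NC libraries, so both DDX5 values were below both NC values. The circle of exons 42 to 43 had 24 and 32 reads in DDX5 libraries and 0 and 21 in NC libraries. Both DDX5 libraries were above both NC libraries in RPM, with NC replicate 1 at 0. Exons 22 to 23 had 10 and 0 reads in DDX5 libraries and 8 and 0 in NC libraries. The circles of exons 6 to 7, 11 to 15 and 28 to 29 had 9, 8 and 3 reads, in 1 NC library each, and exons 17 to 41 and 17 to 43 had 0 reads.

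**Figure D2:**
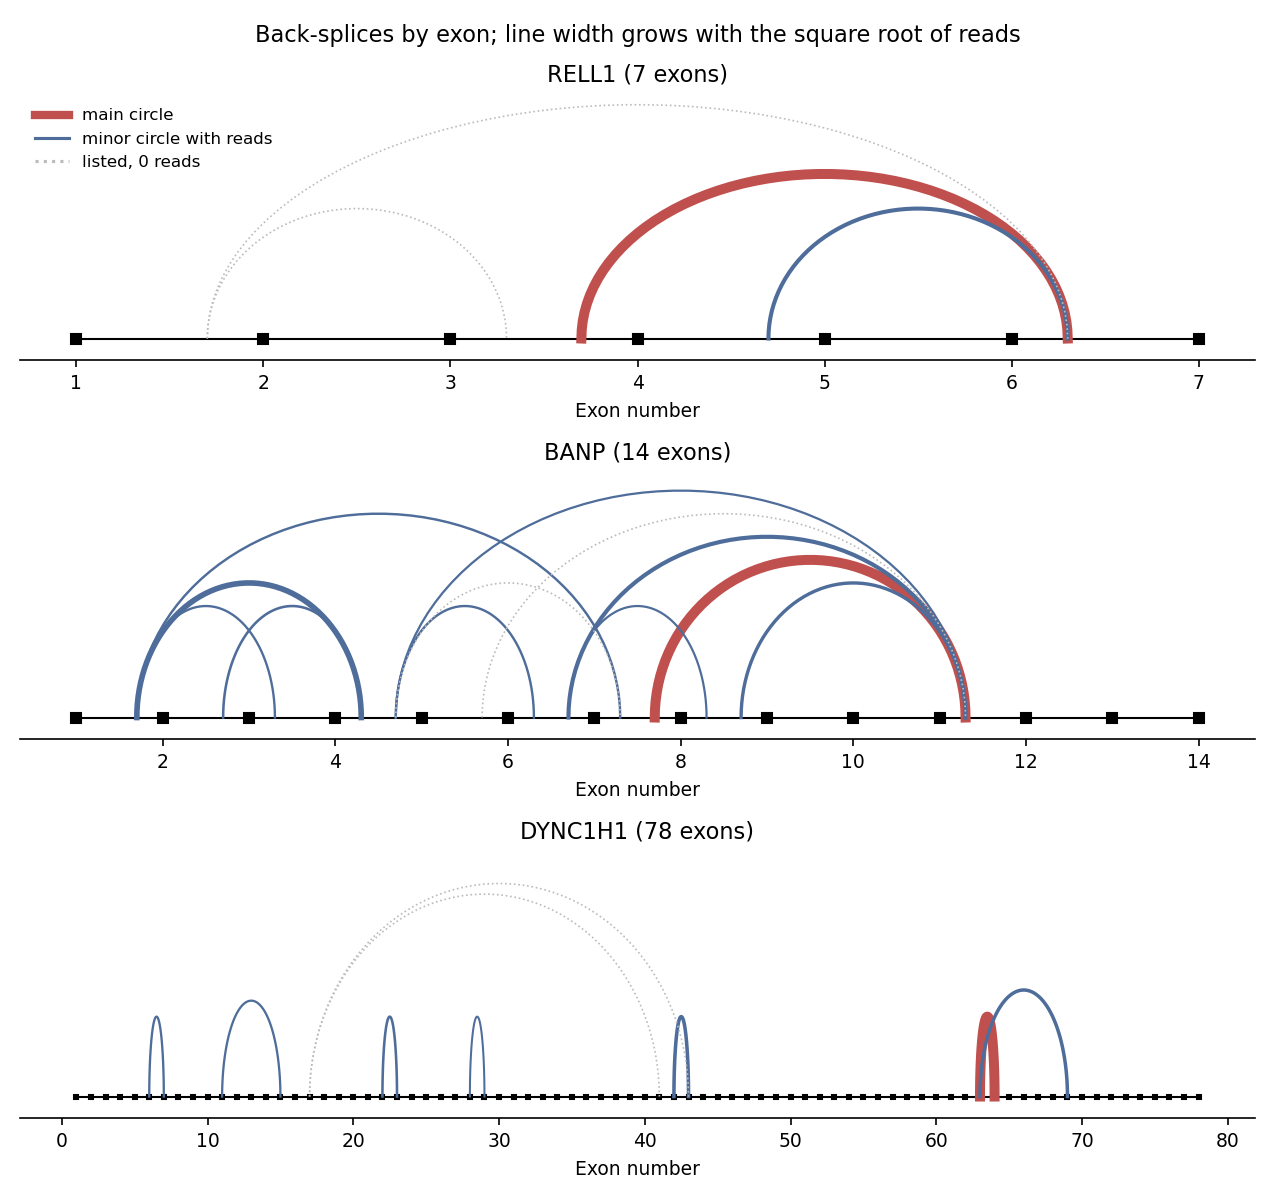
Back-splices of RELL1, BANP and DYNC1H1 drawn as arcs from the acceptor exon to the donor exon, with exon number in the GENCODE 29 transcript on the horizontal axis (exon and intron lengths are not to scale). Line width grows with the square root of the reads over 4 libraries, red marks the main circle and dotted grey arcs had 0 reads. Arcs meet at exon 6 of RELL1, at exon 11 of BANP and at exon 63 of DYNC1H1.

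**Figure D3:**
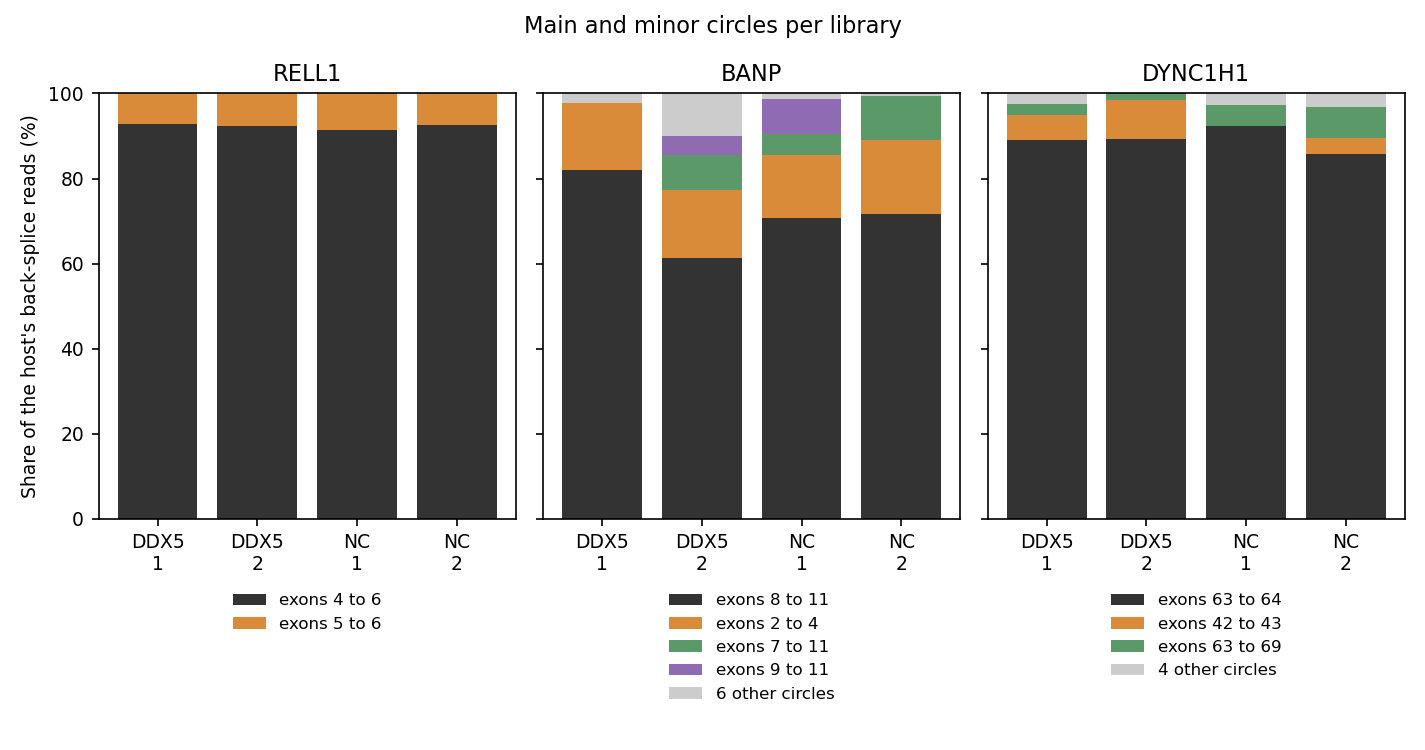
Share of each host's back-splice reads (vertical axis, percent) per library, DDX5 replicates on the left and NC replicates on the right of each panel, split by circle. The black main circle of BANP ranged from 61.3% in DDX5 replicate 2 to 82.1% in DDX5 replicate 1, while that of RELL1 stayed between 91.5% and 92.8%.

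The main share of RELL1 averaged 92.5% ± 0.326 in DDX5 and 92.0% ± 0.732 in NC libraries (SD, n = 2 each, exact permutation test, two-sided p = 0.667). That of BANP averaged 71.7% ± 14.7 in DDX5 and 71.1% ± 0.691 in NC libraries (exact permutation p = 1). Without DDX5 replicate 1 the BANP difference was -9.86 percentage points and without DDX5 replicate 2 it was 10.98, against 0.557 with all libraries. That of DYNC1H1 averaged 89.2% ± 0.140 in DDX5 and 89.1% ± 4.80 in NC libraries (exact permutation p = 1). With 2 against 2 libraries this test gives no p below 0.3333, so a shift could not have been called. CDYL and ASXL1 were at 100% in every library, with lower Clopper-Pearson bounds from 99.4% to 99.7%. Within each host, edgeR's test of differential usage gave an adjusted p of 0.997 for RELL1, 0.799 for BANP and 0.859 for DYNC1H1, so 0 of 3 hosts were called. Over all 1067 hosts that could be tested, 0% were called at the adjusted threshold and 3.37% at an unadjusted p under 0.05.

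Among the 100 hosts with at least 500 reads, which include these 5, the main circle took a median of 82.8% of reads (lowest 20.4%), and 14 hosts had 1 circle with reads. RELL1 at 92.3% was above 63 of the 100, DYNC1H1 at 88.8% above 57 and BANP at 71.4% above 40. BANP had 10 circles with reads and DYNC1H1 had 7, where the median host had 5 and the highest 19. In RELL1 100% of the minor reads were on a circle that shares a splice site with the main circle, against 38.8% in DYNC1H1 and 33.9% in BANP. RELL1 had only 1 minor circle with reads, so its value could only be all or none, while DYNC1H1 had 6 and BANP 9. The median over the 86 such hosts with a minor circle was 46.8% (interquartile range 3.67 to 80.9%). These values describe the libraries and carry no test.

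**Figure D4:**
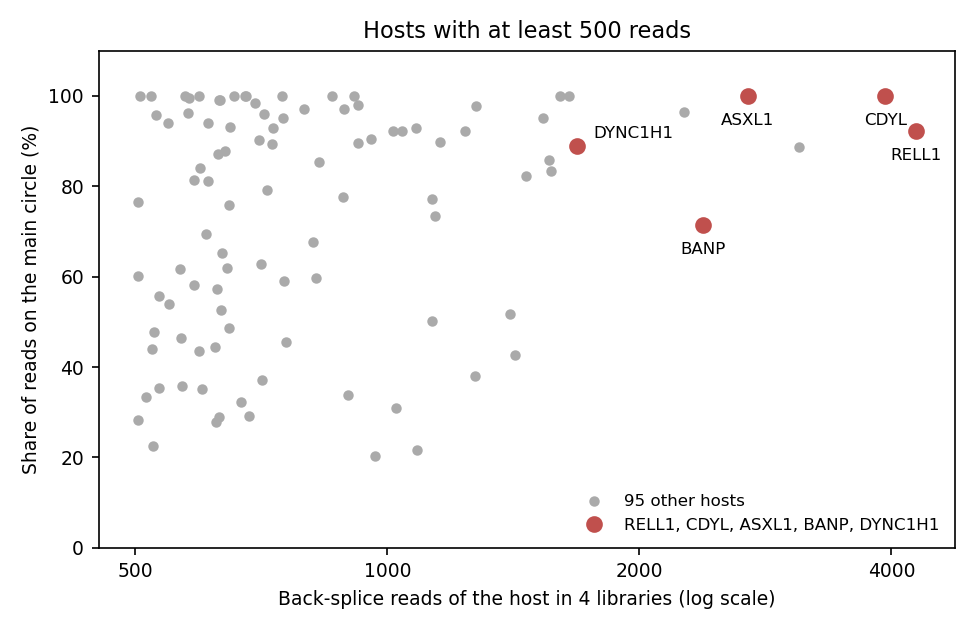
Share of reads on the main circle (vertical axis, percent) against the back-splice reads of the host over 4 libraries (horizontal axis, log scale) for the 100 hosts with at least 500 reads. Each point is a host, the 5 hosts described are red, and BANP at 71.4% is the lowest of the red points.

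Next, the levels in DDX5 cells were compared with those in NC cells. Of the 16 circles with at least 10 reads, 0 were called higher and 0 lower by edgeR's quasi-likelihood test at an adjusted p of 0.05, and 0 had an unadjusted p under 0.05. Over all 4671 circRNAs tested, 0.0856% were called higher and 0% lower at the adjusted threshold, and 1.28% and 1.37% at the unadjusted one. The other 11 of the 27 circles had fewer than 10 reads and were not tested. Of the 16, 8 had a log2 fold change above 0 and 8 below, with a median of -0.04, against -0.26 over all tested circRNAs. Over the 1669 circRNAs with at least 40 reads, fitted alone, the median was -0.036, close to that of the 16. Setting the 3 circles that had 0 NC reads to the bound of the 3-read floor could not move the median of the 16, since they stay above it. Those 3 were BANP exons 2 to 7, 5 to 6 and 2 to 3. Scaled by depth, their pooled DDX5 reads were 5.76-fold, 5.35-fold and 4.53-fold the 3-read NC floor. The counting error of the DDX5 reads was left out, and each circle rested on 1 library.

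The 5 main circles had fold changes near 1. The fit scales the libraries by TMM factors, which RPM does not, so its fold changes differ from the ratios of the RPM means. With library totals in place of TMM, the log2 fold changes were -0.06 for RELL1, 0.24 for CDYL, 0.14 for ASXL1 and -0.11 for BANP. RELL1 had 12522 ± 856 RPM in DDX5 and 13048 ± 623 RPM in NC libraries (SD, n = 2 each), a log2 fold change of -0.17 (SE 0.09, adjusted p = 0.951). CDYL had 13777 ± 1079 RPM in DDX5 and 11635 ± 2558 RPM in NC libraries, a log2 fold change of 0.13 (SE 0.09, adjusted p = 0.951), and its difference was smaller than the NC spread. Without NC replicate 1 the CDYL value was -0.11. ASXL1 had 9319 ± 1721 RPM in DDX5 and 8453 ± 1285 RPM in NC libraries, a log2 fold change of 0.03 (SE 0.12, adjusted p = 1.00), which was -0.10 without DDX5 replicate 2 and -0.07 without NC replicate 2. BANP had 5268 ± 165 RPM in DDX5 and 5684 ± 98.3 RPM in NC libraries, a log2 fold change of -0.21 (SE 0.17, adjusted p = 0.951). DYNC1H1 had a log2 fold change of -0.11 (SE 0.18, adjusted p = 1.00), which was -0.00062 with library totals in place of TMM and 0.0010 with limma on log2(RPM + 1). The 95% intervals reached from -0.35 to 0.015 for RELL1, from -0.053 to 0.31 for CDYL, from -0.21 to 0.27 for ASXL1, from -0.55 to 0.12 for BANP and from -0.47 to 0.26 for DYNC1H1. The fit takes the spread from all circRNAs together, so these intervals need not cover the scatter of a single circle such as that of CDYL in NC libraries.

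The groups did not overlap in 3 of the 16 circles. DYNC1H1 exons 42 to 43 were higher in both DDX5 libraries (1 circle, 6.25%, against 10.8% of all tested circRNAs), and BANP exons 8 to 11 and DYNC1H1 exons 63 to 69 were lower in both (2 circles, 12.5%, against 12.5% of all). These shares were no higher than those of the whole table. DYNC1H1 exons 42 to 43 averaged 419 ± 159 RPM in DDX5 and 107 ± 152 RPM in NC libraries, with a log2 fold change of 1.78 (SE 1.43, adjusted p = 0.951) that was 0.79 without NC replicate 1 and 7.85 without NC replicate 2, where the NC library left had 0 reads. DYNC1H1 exons 63 to 69 averaged 105.3 ± 31.5 RPM in DDX5 and 329 ± 97.9 RPM in NC libraries, with a log2 fold change of -1.72 (SE 1.62, adjusted p = 0.951). The minor circles of RELL1 exons 5 to 6 and BANP exons 2 to 4 had log2 fold changes of -0.27 (SE 0.51) and -0.24 (SE 0.46), close to those of the main circles beside them. BANP exons 7 to 11 had -0.99 (SE 0.88), which was 0.04 without DDX5 replicate 1 and -8.68 without DDX5 replicate 2, where the DDX5 library left had 0 reads.

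**Figure D5:**
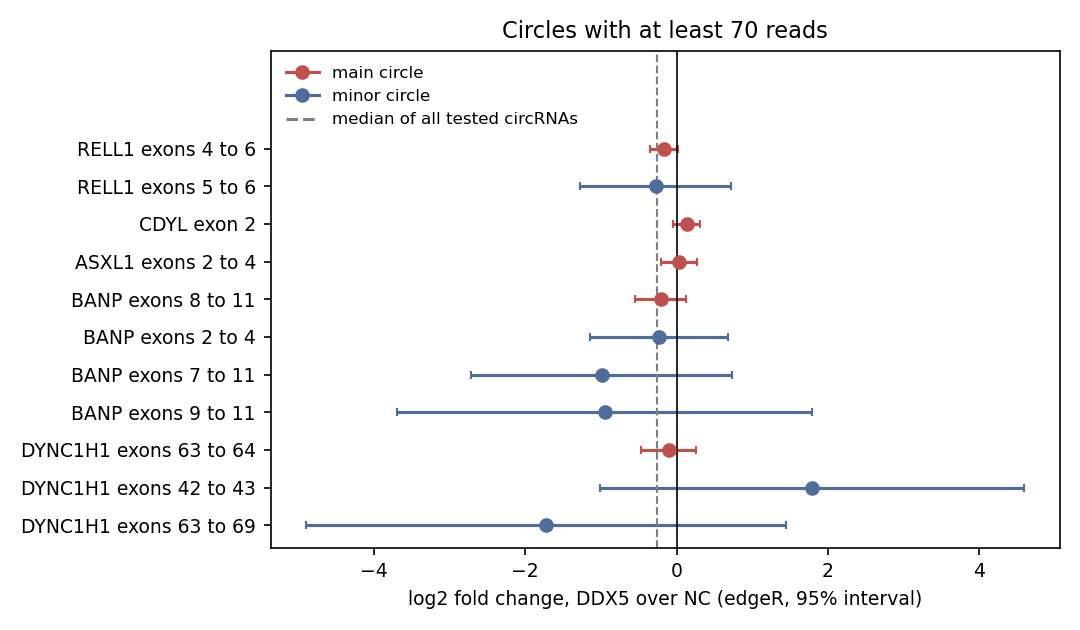
Log2 fold change of DDX5 over NC (horizontal axis) with its 95% interval from edgeR for the 11 circles with at least 70 reads, main circles in red and minor circles in blue. The dashed line is the median of all 4671 tested circRNAs, -0.26, and all 11 intervals include 0. The median of the 1669 circRNAs with at least 40 reads, fitted alone, was -0.036 and is not drawn.

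Summed over all circles of a host, 0 of 5 genes were called, against 0% of 2703 hosts in either direction at the adjusted threshold and 1.11% higher and 1.41% lower at the unadjusted one. The log2 fold changes of the sums were -0.12 for RELL1, 0.19 for CDYL, 0.09 for ASXL1, -0.15 for BANP and -0.05 for DYNC1H1 (SE 0.11 to 0.18, each adjusted p = 0.999). CDYL and ASXL1 have 1 circle each, so their sums hold the same counts as those circles. Their values differ from the 0.13 and 0.03 of the circles because the sums were fitted separately, with their own TMM factors. With library totals in place of TMM, the sums of CDYL and ASXL1 had 0.24 and 0.14, as did the circles. BANP summed to 7483 ± 1308 RPM in DDX5 and 7992 ± 216 RPM in NC libraries, and DYNC1H1 to 5452 ± 421 and 5454 ± 39.8 RPM. In NC libraries the sum of the DYNC1H1 circles had a smaller SD than its main circle (39.8 against 226 RPM), while in DDX5 libraries it did not (421 against 383 RPM). As a description, the 5 main circles all lay within 0.25 of 0 on the log2 scale, as did 32 of the 56 circRNAs of other hosts with at least 500 reads, which ranged from -0.52 to 1.06.

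The 5 main circles differed in length and exon number, while all but that of DYNC1H1 had a long intron downstream. Spliced as annotated they have 434 (RELL1), 667 (CDYL), 195 (ASXL1), 407 (BANP) and 251 (DYNC1H1) nt, and the median of the 7254 circRNAs with reads that could be placed on exons was 383 nt (interquartile range 293 to 554). CDYL was a single exon, as were 7.003% of these circRNAs, and CDYL and ASXL1 began at exon 2, as did 25.8%. The introns downstream of the donor were long for RELL1 (18042 nt), CDYL (43135 nt), ASXL1 (59004 nt) and BANP (27255 nt), where the median circRNA had 5053 nt. DYNC1H1 stood apart, with introns of 503 nt upstream and 900 nt downstream, shorter than those of all but 2.46% and 6.76% of circRNAs. Upstream introns were 8863, 114905, 7551 and 8815 nt for RELL1, CDYL, ASXL1 and BANP, against a median of 6205 nt. No test was made, since the hosts were chosen for their circles.

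Genes that work with the hosts were read from the same fit of host sums, where all tested hosts had a median log2 fold change of -0.13. Of 10 ASXL1 partners, 4 could be tested and 0 were called (median 0.09). FOXK2, a forkhead factor that recruits the ASXL1 and BAP1 complex, had 233 and 192 reads in DDX5 libraries and 184 and 313 in NC libraries. Of 15 Polycomb genes and CDYL partners, 8 were tested and 0 called (median -0.01). EZH2, the methyltransferase of Polycomb complex PRC2, had 276 and 173 reads in DDX5 libraries and 219 and 287 in NC libraries, with 90.5% on its main circle. EHMT1, a histone methyltransferase, spread its reads over 16 circles with 28.4% on the main one, unlike CDYL itself. Of the RELT family and its kinases, 3 of 5 were tested (median -2.11), and of 11 BANP partners 5 were tested (median -1.005), with 0 called in each. These lists had few reads, 135 and 680 over all libraries. Of 41 dynein, dynactin and adaptor genes, 10 were tested and 0 were called (median -1.20). This list too had few reads, 675 over all libraries. RAB11FIP3, an adaptor of dynein on recycling endosomes, was the 1 with an unadjusted p under 0.05 by edgeR (adjusted p = 0.999), with 0 and 0 reads in DDX5 libraries and 26 and 10 in NC libraries. Over all tested hosts, 1.41% were lower at that unadjusted threshold.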

How the data were processed

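The authors deposited, for each circRNA, the raw count of its junction reads and an RPM value, which is that count scaled to 1000000 junction reads of the library (largest difference from a recalculation 0.00499 RPM). CIRCexplorer2 and CIRI2 are the callers in the paper, and BWA and hg38 stand in the submitters' processing notes. No count equals 1 and the smallest above 0 is 2, so weak junctions may have been removed before deposit. Of 11760 circRNAs, 7587 had reads.

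Samples were grouped by the sample labels. CircRNAs with at least 10 reads and host sums were compared by edgeR 4.0.16 in R 4.3.3 (quasi-likelihood, TMM factors, Benjamini-Hochberg over all tested, threshold 0.05). Usage within hosts was tested with diffSpliceDGE of edgeR, and main circle shares with an exact permutation test. An SE is the absolute log2 fold change over the root of the F statistic. DESeq2 1.42.0, limma 3.58.1 on log2(RPM + 1) and log2(RPM + 0.1), other scalings and filters (none, 40 reads), a replicate block and leaving out each library were alternatives. The tests were also run on simulated data, and no conclusion here rests on that run. With so few libraries per group, a circle that was not called is not shown to be unchanged. The 5 hosts, the circles named (those with at least 10 reads) and the gene lists were chosen with earlier results of these data known.

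Coordinates are printed as deposited. They differ from GRCh38 and fit hg19, which was not used here. All 27 circles were placed on exons of GENCODE 29 by the distance between exon edges, as were 11230 circRNAs (95.5%), and the sequences are those of GENCODE 29 transcripts. Transcripts with 7 (RELL1, CDYL), 13 (ASXL1), 14 (BANP) and 78 (DYNC1H1) exons gave the exon numbers. No column was left unused. Library pairs differed beyond sampling noise (chi-square per degree of freedom 7.85 to 9.28). The values of some circRNAs of other hosts were left out and are not reported here.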

Additional observations from a re-analysis of the deposited data

How the results depend on the processing

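None of the 5 main circles, the 11 tested minor circles or the 5 host sums was called under any alternative (60, 122 and 60 values, smallest adjusted p 0.0871, BANP exons 7 to 11 without DDX5 replicate 2), and the usage test called 0 hosts under each of its alternatives. The number of circRNAs called higher over the whole table was 4 in the reported fit, 2 with DESeq2, 0 with limma on log2(RPM + 1), 0 with limma on log2(RPM + 0.1), 0 with at least 40 reads, 11 with a replicate block and 0 to 32 when a library was left out. The number called lower was 0, with 2 under the replicate block and 0 to 6 with a library left out. Hosts called higher were 0, with 1 by DESeq2, 2 with no filter, 3 with the replicate block and 0 to 12 with a library left out, and hosts called lower were 0 throughout. The labels do not say whether same-numbered libraries were made together. Their deviations from the group means correlated at -0.026 over 1011 circRNAs, which cannot decide it. The share difference of DYNC1H1 was 0.155 percentage points, and -1.60 with minor circles of at least 10 reads only. With a library left out the share differences ranged from 0.011 to 1.05 for RELL1, from -9.86 to 10.98 for BANP and from -3.24 to 3.55 for DYNC1H1. Log2 fold changes that changed sign when a library was left out, each uncalled, ranged from -0.11 (without NC replicate 1) to 0.43 for CDYL exon 2, from -0.10 (without DDX5 replicate 2, and -0.07 without NC replicate 2) to 0.17 for ASXL1 exons 2 to 4, from -8.68 to 0.041 (without DDX5 replicate 1) for BANP exons 7 to 11, from -7.78 to 6.78 (without NC replicate 1, and 0.08 without DDX5 replicate 1) for BANP exons 9 to 11 and from -0.74 (without NC replicate 2) to 5.39 for DYNC1H1 exons 22 to 23. The same held for the sums of CDYL (-0.023 without NC replicate 1, to 0.45) and ASXL1 (-0.076 without DDX5 replicate 2 and -0.05 without NC replicate 2, to 0.24). Each of these sums holds the counts of the only circle of its host, fitted among host sums, and is no separate result. DYNC1H1 exons 63 to 64 had 0.001021 and 0.00102 in the limma fits. Relative to its host, the BANP main circle moved to 0.074 with at least 40 reads and ranged from -0.20 to 0.19 with a library left out, and the DYNC1H1 main circle moved to 0.0042 with no filter and ranged from -0.062 to 0.012. The cause of these changes was not tested. In these fits a lone library borrows the spread of the opposite group. With 60178 to 97961 reads per library, a minor circle below about 10 reads is near the floor, and 37.5% of 24 minor circle values of at least 10 reads had 0 in the other library of the group.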

Other observations

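The reading frame of the main circles was read from the annotated transcripts, as a description without a test. The ASXL1 circle of 195 nt is a multiple of 3, as were 37.7% of the 7254 placed circRNAs with reads, and it holds no stop codon in the frame of its host, so that this frame runs round the circle without a stop. The CDYL circle of 667 nt lies wholly in the coding sequence but leaves a remainder of 1 nt, and those of RELL1, BANP and DYNC1H1 leave a remainder of 2 nt. The RELL1 circle holds the stop codon of its host, as did 1.03% of the placed circRNAs. Among the minor circles with at least 10 reads, DYNC1H1 exons 42 to 43 (294 nt) is also a multiple of 3 without a stop codon in the host frame. BANP exons 2 to 7 (939 nt, 14 reads in 1 library) is a multiple of 3 too. It holds the start codon of its host, and its frame was not read. The data hold junction reads only, and neither the exons inside a circle nor its translation was measured.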
